A study of Mus musculus with 12 samples.

Results

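The genes described here are 34 members of the unfolded protein response and of the folding machinery of the endoplasmic reticulum (ER) in mouse peritoneal macrophages, the phagocytes of the abdominal cavity. They were chosen by symbol from the 55586 genes of the deposited count table. The rule itself used no measured values, but earlier results of these data were known when it was set. Of these 34, 33 passed the filter on low counts, which left 13474 genes in all. Derl3, a Derlin of secretory tissues, did not pass, with 26 reads over all 12 libraries.

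Cells were either left untreated, given interferon gamma (IFN-γ), the cytokine used for classical activation, given Remodelin hydrobromide, or given Remodelin followed by IFN-γ, called the combined treatment below. Each of the 4 groups held 3 libraries, and all of them came from cells kept in serum-containing medium. Remodelin is known as an inhibitor of NAT10, the acetyltransferase that writes N4-acetylcytidine in RNA. The labels name no dose, time, strain, sex, age or batch. They also do not say whether libraries 1 to 3 are different cultures or mice, so that p-values measure only the spread between libraries, which may be technical.

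Proteins enter the ER through the Sec61 channel and are folded there by chaperones and disulfide isomerases. Unfolded protein draws the chaperone BiP away from 3 sensors in the ER membrane, IRE1α, PERK and ATF6. IRE1α splices the mRNA of XBP1, ATF6 is cleaved into a transcription factor, and PERK phosphorylates the initiation factor eIF2α, which lowers translation and raises ATF4. XBP1 and ATF6 drive genes for chaperones and for ER-associated degradation (ERAD), the route that returns misfolded proteins to the cytosol. In macrophages these arms are also known to touch cytokine production. Splicing, cleavage and phosphorylation are not read by counts per gene.

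The libraries held 15917454 to 19418665 counts. The labelled cell type was checked against 11 macrophage markers, of which 10 passed the filter. Lyz2 lay between 12670 and 23170 CPM (counts scaled to library size with TMM factors), and Adgre1 between 148 and 200 CPM (lowest and highest library), and of the markers of resident peritoneal macrophages Gata6 lay between 9.54 and 19.5 CPM, Icam2 between 3.93 and 6.90 CPM, and Timd4 had 8 reads in total. The summed level of the list was 15090 to 25400 CPM. Remodelin was associated with 302 higher and 647 lower genes of 13474 when both levels of IFN-γ were used, which is 7.04% of the genes tested. Library 1 of the combined treatment had the widest spread of member deviations, with an SD of 0.497 log2 units about the mean of each gene over all libraries, against 0.121 to 0.274 in the other 11. Of the 33 members, 10 had their highest and 12 their lowest level in that library. Library 1 of Remodelin held the lowest level of 7 members.

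Markers of other peritoneal cells differed between the Remodelin libraries and the rest, and their part in the member differences was not tested. Of the 12 B and plasma cell markers, 7 passed the filter and 3 were lower with Remodelin (Ighm, Igkc and Sdc1). Their summed level was 395 to 469 CPM with Remodelin and 357 to 489 with the combined treatment, against 492 to 711 in controls and 570 to 634 with IFN-γ. Sdc1, which macrophages are also known to express, made up most of that sum, and Jchain, Mzb1 and Tnfrsf17, which define plasma cells with a high load of secretory protein, reached at most 0.735, 1.03 and 0.506 CPM in any library. Of 11 mesothelial markers, 10 were tested and 4 were lower, with summed levels of 59.6 to 77.1 CPM in the 6 Remodelin libraries and 101 to 135 in the other 6. Of the 10, 7 had negative and 3 positive log2 fold changes (up to 0.64). Upk3b made up much of the summed difference, at 11.1 to 16.6 CPM with Remodelin and 37.6 to 59.4 without. Of 8 neutrophil markers, 3 were tested and 2 were lower (Mmp8 and Mmp9), with summed levels of 28.0 to 33.7 CPM with Remodelin and 45.9 to 55.3 without, while Ly6g had 1 read in total. No tested marker of mast or dendritic cells was called by edgeR (smallest adjusted p = 0.0937 and 0.448), and Ncr1 and Gzma of the T and NK cell list had 0 reads. In bulk RNA, fewer cells of a type and less RNA per cell cannot be told apart.

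Levels can be compared between genes only per length, for which the deposited FPKM values were used. In control libraries the abundant members were the folding machinery itself. Calr, which encodes the calcium-binding lectin chaperone calreticulin, stood at 336 ± 17.0 FPKM (SD, n = 3), and P4hb, which encodes protein disulfide isomerase, at 331 ± 38.5, a difference smaller than their spread. Sdf2l1, a partner of BiP, followed at 246 ± 41.9 FPKM, and Sec61b, a subunit of the translocation channel, at 136 ± 14.5. Xbp1 (90.8 ± 17.6), Pdia3 (87.9 ± 8.24), Pdia6 (86.4 ± 6.72) and Hspa5 (85.7 ± 6.96) came next and did not differ beyond their spread.

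The sensors stood near the low end of that order. Atf6 was at 5.47 ± 0.914 FPKM, Ern1, which encodes IRE1α, at 4.17 ± 0.996, and Eif2ak3, which encodes PERK, at 2.57 ± 0.698. Edem3 (2.34 ± 1.01), a mannosidase-like ERAD factor, and Pdia5 (1.83 ± 0.114) were lower still, and Eif2ak3 and Edem3 did not differ beyond their spread. Derl3 was at 0.0443 ± 0.0566 FPKM in the same libraries, with 0 reads in control 3.

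Some of the members share a promoter element. They were picked as genes of the unfolded protein response and ER folding, so a high share of an ER stress element among them is not an independent result. The ER stress element (ERSE), which reads CCAAT, then 9 bases of any kind (N), then CCACG, was searched on both strands of the 250 bases before each RefSeq start (GRCm38.p6). It was found in 9 of the 28 members with a promoter entry (32.1%) and in 35 of 27025 genes (0.13%). The members were Calr, Canx, Creld2, Derl3, Dnajc3, Hsp90b1, Hspa5, Pdia6 and Syvn1. The shorter ERSE-II, which reads ATTGG, then 1 base of any kind, then CCACG, was found in Herpud1 and in 10 genes in all (0.037%), and the letters TGACGTGG, searched for XBP1 and ATF6 sites, were in 0 of 28 members and in 163 genes (0.603%). No 2 matches overlapped in a member's window, and a match describes letters, not binding.

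The elements of 4 members whose levels are given in full below are printed with 15 bases on either side, 5′ to 3′ on the strand of the gene, from RefSeq on GRCm38.p6. They are shown because they are the shared sequence feature against which the expression of chaperones can be read. Capitals mark the match, which lies in the reverse direction in Calr and in the second element of Hsp90b1.

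Hspa5, chr2:34772010-34772058, plus strand, 46 bases before the start: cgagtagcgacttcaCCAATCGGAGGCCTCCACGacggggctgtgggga

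Hsp90b1, chr10:86705623-86705671, minus strand, 193 bases before the start: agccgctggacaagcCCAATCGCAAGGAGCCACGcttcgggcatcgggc

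Hsp90b1, chr10:86705518-86705566, minus strand, 88 bases before the start: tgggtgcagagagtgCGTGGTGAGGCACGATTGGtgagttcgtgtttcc

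Calr, chr8:84847060-84847108, minus strand, 143 bases before the start: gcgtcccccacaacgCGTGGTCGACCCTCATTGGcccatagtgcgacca

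Herpud1, chr8:94386362-94386402, plus strand, 41 bases before the start: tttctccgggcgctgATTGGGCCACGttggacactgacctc

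The first comparison asked whether Remodelin changed these genes, with the difference averaged over both levels of IFN-γ, which sets 6 Remodelin libraries against 6 without it. Of the 33 members tested, 2 fell and 0 rose (6.06%, against 7.04% of all genes tested). Those that fell were Calr and Edem2, a mannosidase-like ERAD factor for misfolded glycoproteins. The median log2 fold change of the members was -0.03, beside 0.03 over all genes, and 15 members had a positive and 18 a negative value. The members' values ran from -0.44 (Calr) to 0.44 (Edem3).

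**Figure D1:**
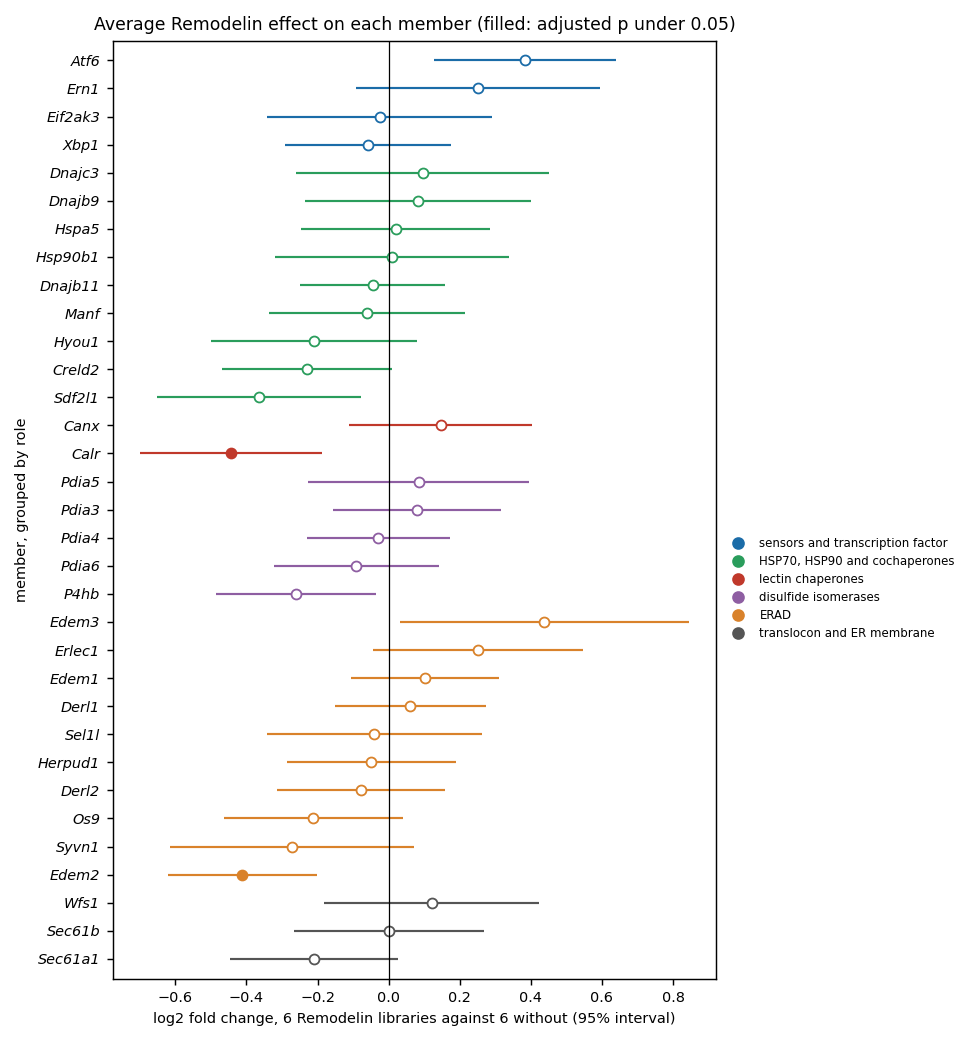
Average Remodelin effect on each of the 33 members tested, as log2 fold change on the x axis with its 95% interval, grouped by role on the y axis. Filled points, Calr and Edem2, passed an adjusted p of 0.05, and both lie to the left of 0.

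That count depended on single libraries. The member count was 0 without control 2, IFN-γ 1, IFN-γ 2, Remodelin 3 or the combined library 1. It was 1 without control 3, IFN-γ 3, Remodelin 2 or the combined library 3, and 5 without control 1 or Remodelin 1. The count of all genes called moved over the same fits as well, by the range given in the closing section. These member counts are therefore not a result about the members. Leaving out both control 1 and Remodelin 1 gave 9 members (4 higher, 5 lower) and 3668 of all genes, and leaving out library 1 of the combined treatment as well gave 14 members (6 higher, 8 lower) and 4946 of all genes. The last set was chosen after the data were seen, because those libraries stand apart, which lowers the spread by construction. In the libraries then kept, the trend with transcript length also differed by treatment, as given for Ern1 below.

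Edem2 had the smallest p of the members. It read 193, 235 and 209.9 CPM in the control libraries, 237, 207 and 197 with IFN-γ, 179, 166 and 161 with Remodelin, and 134, 166 and 156 with the combined treatment. All 6 Remodelin libraries lay below all 6 others, and Edem2 was the 1 member of 33 with such a separation, which 4.66% of all genes tested showed. The mean was 160.4 ± 14.98 CPM with Remodelin and 213 ± 18.4 without (SD, n = 6 each), a log2 fold change of -0.41 ± 0.10 (SE; 95% interval -0.62 to -0.20; edgeR quasi-likelihood test, Benjamini-Hochberg adjusted p = 0.0218). It was -0.33 ± 0.14 in Remodelin against control (adjusted p = 0.33) and -0.49 ± 0.14 in the combined treatment against IFN-γ (adjusted p = 0.133). The averaged value passed the threshold in 6 of 12 fits that each left out 1 library. Without control 2, IFN-γ 1, IFN-γ 2, Remodelin 2, Remodelin 3 or the combined library 1 the adjusted p was 0.0508 to 0.0845, with log2 fold changes of -0.42 to -0.34.

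Calr, the lectin chaperone that holds glycoproteins during folding and buffers calcium, was with P4hb the most abundant by FPKM in control libraries. It read 988, 1023 and 917 CPM in controls, 998, 839.9 and 986 with IFN-γ, 663, 848 and 702 with Remodelin, and 502, 778 and 739.6 with the combined treatment. Within each level of IFN-γ the Remodelin libraries lay below the others, and over all 12 libraries the groups overlapped, since Remodelin 2 was above IFN-γ 2. Library 1 of the combined treatment was the lowest. The mean was 705 ± 118 CPM with Remodelin and 958 ± 67.9 without (SD, n = 6 each), a log2 fold change of -0.44 ± 0.12 (95% interval -0.70 to -0.19; edgeR adjusted p = 0.0377). Without the combined library 1 it was -0.33 ± 0.10 (adjusted p = 0.0774). The call was also lost without control 2, control 3, IFN-γ 1, IFN-γ 2, IFN-γ 3, Remodelin 3 or the combined library 3, with adjusted p of 0.0512 to 0.111 and log2 fold changes of -0.48 to -0.42.

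Canx, which encodes calnexin, the membrane-bound relative of calreticulin, and has its own ERSE, was not called. It lay between 146 and 241 CPM, with a log2 fold change of 0.15 ± 0.12 (95% interval -0.11 to 0.40, adjusted p = 0.45). With the GC trend removed its value was -0.05 (adjusted p = 0.763), of the same sign as that of Calr, and the difference between the 2 was not tested.

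**Figure D2:**
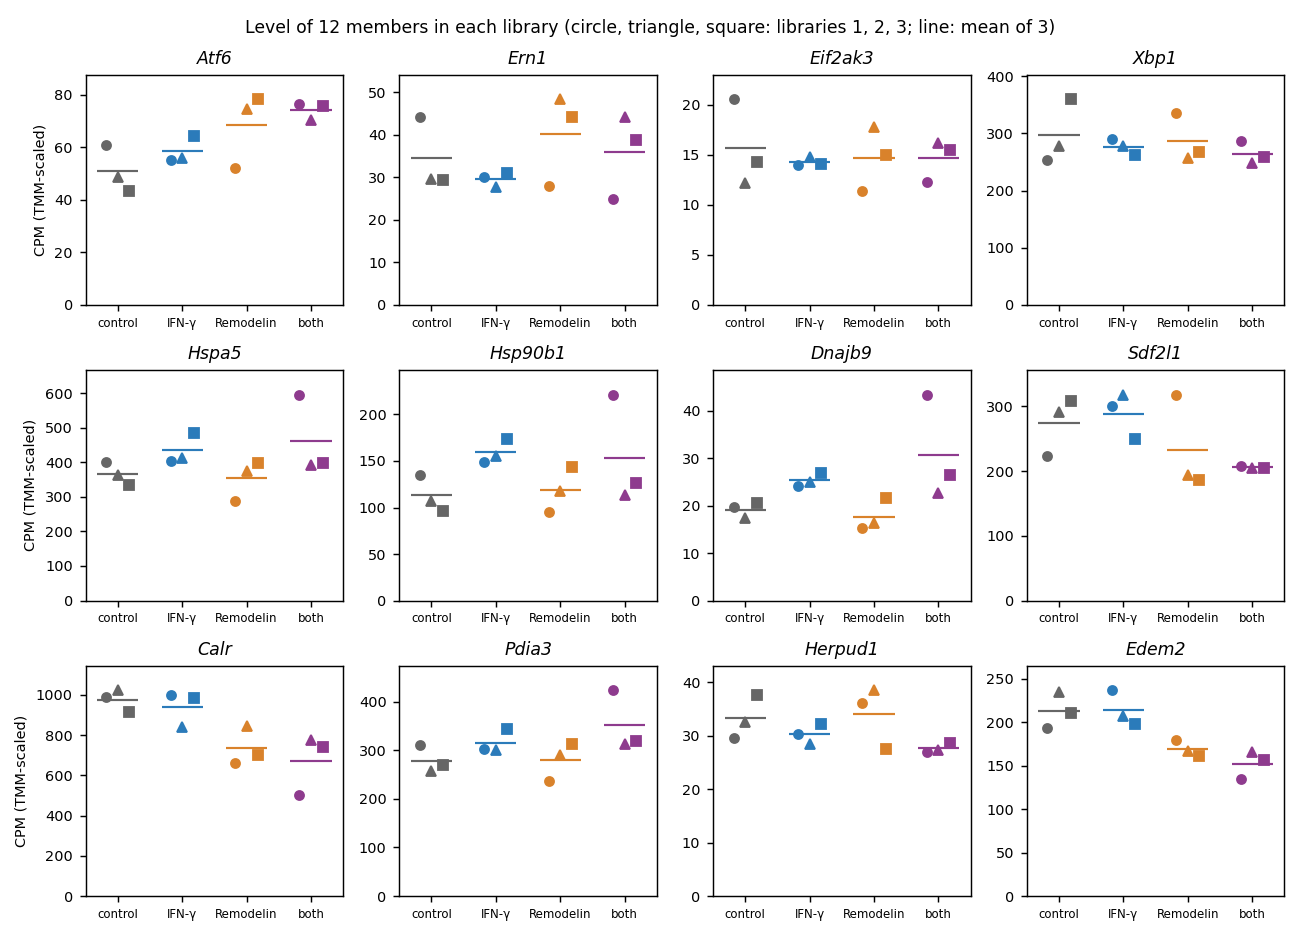
Level of 12 members in each library, in TMM-scaled CPM from 0 on the y axis, with the 4 groups on the x axis ("both" is the combined treatment). Symbols mark libraries 1, 2 and 3 and lines the group means. Edem2 is lower in all 6 Remodelin libraries, and library 1 of the combined treatment is the highest for Hspa5, Hsp90b1, Dnajb9 and Pdia3 and the lowest for Calr.

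None of the 4 sensors and transcription factors was called in any of the 6 comparisons. Atf6, whose protein is the cleaved sensor, came nearest. It read 60.9, 48.9 and 43.4 CPM in controls, 55.1, 55.9 and 64.3 with IFN-γ, 52.1, 74.6 and 78.3 with Remodelin, and 76.6, 70.6 and 75.8 with the combined treatment. Of the 6 Remodelin libraries, 5 lay above every library without Remodelin, and Remodelin 1 lay among them. The log2 fold change was 0.38 ± 0.12 (95% interval 0.13 to 0.64, adjusted p = 0.0638). It passed the threshold with DESeq2 (0.40, adjusted p = 0.0189) and with no count filter (0.41, adjusted p = 0.0367). It also passed without control 1 (0.46, adjusted p = 0.0251) and without Remodelin 1 (0.46, adjusted p = 0.0134). When each library's trend with GC content was removed, it was 0.26 (adjusted p = 0.117). Over genes, the Spearman correlation of deviations with transcript length was 0.460 in control 1 and -0.473 in Remodelin 1. The longest Atf6 transcript has 7246 bases, and the part of length in these values was not tested.

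Ern1, the IRE1α gene, read 44.2, 29.7 and 29.4 CPM in controls, 30.2, 27.6 and 31.0 with IFN-γ, 27.9, 48.3 and 44.2 with Remodelin, and 24.98, 44.1 and 38.9 with the combined treatment. Library 1 lay apart from libraries 2 and 3 in the control, Remodelin and combined groups, above them in the first and below them in the others, and the groups overlapped widely. The log2 fold change was 0.25 ± 0.16 (95% interval -0.09 to 0.60, adjusted p = 0.33). Without those 3 libraries, a set chosen after the data were seen, it was 0.59 ± 0.09 (edgeR adjusted p = 9.39e-06). In the libraries then kept, the trend of gene deviations with transcript length differed by treatment. Its Spearman correlation was 0.236 to 0.392 in the Remodelin and combined libraries and -0.327 to 0.0842 in the others. The longest Ern1 transcript has 6946 bases, and the part of length in this value was not tested.

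Eif2ak3, the PERK gene, read 20.6, 12.2 and 14.3 CPM in controls, 13.98, 14.8 and 14.1 with IFN-γ, 11.3, 17.8 and 14.97 with Remodelin, and 12.3, 16.2 and 15.5 with the combined treatment. The highest library was control 1 and the lowest Remodelin 1, and the log2 fold change was -0.03 ± 0.15 (95% interval -0.34 to 0.29, adjusted p = 0.928). Xbp1, the transcription factor downstream of IRE1α, read 254, 279 and 359.6 CPM in controls, 289.5, 277 and 263 with IFN-γ, 336, 256 and 268 with Remodelin, and 287, 248 and 259 with the combined treatment. Its groups overlapped, with a log2 fold change of -0.06 ± 0.11 (95% interval -0.29 to 0.18, adjusted p = 0.762). The counts do not separate spliced from unspliced Xbp1.

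Of the 9 members of the HSP70 and HSP90 system and their cochaperones, 0 passed the test with Remodelin. Hspa5, which encodes BiP, the HSP70 of the ER and the usual readout of the response, read 399.9, 363 and 335 CPM in controls, 405, 414 and 484 with IFN-γ, 289, 373 and 399 with Remodelin, and 595, 393 and 397 with the combined treatment. Apart from Remodelin 1 below and the combined library 1 above, its Remodelin libraries lay within the range of the others. The averaged log2 fold change was 0.02 ± 0.13 (95% interval -0.25 to 0.29, adjusted p = 0.934). Hsp90b1, which encodes the ER HSP90 GRP94 and carries 2 ERSE matches, read 135, 107 and 96.6 CPM in controls, 149, 156 and 173 with IFN-γ, 94.8, 118 and 143 with Remodelin, and 221, 113 and 126 with the combined treatment. The combined library 1 was again the highest, and the log2 fold change was 0.01 ± 0.16 (95% interval -0.32 to 0.34, adjusted p = 0.974).

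Dnajb9, which encodes the BiP cochaperone ERdj4, a known XBP1 target, read 19.7, 17.3 and 20.5 CPM in controls, 24.1, 25 and 26.9 with IFN-γ, 15.3, 16.3 and 21.6 with Remodelin, and 43.4, 22.6 and 26.4 with the combined treatment. All 3 IFN-γ libraries lay above all controls, and all 3 combined libraries above all Remodelin ones, a separation that 17.7% and 9.48% of all genes showed in those comparisons. With Remodelin the averaged log2 fold change was 0.08 ± 0.15 (95% interval -0.24 to 0.40, adjusted p = 0.75).

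Sdf2l1, which keeps BiP substrates soluble, read 224, 291 and 309 CPM in controls, 299.8, 317 and 249 with IFN-γ, 318, 193 and 186 with Remodelin, and 207, 204 and 205 with the combined treatment. The 3 combined libraries were closely spaced and lay below every library without Remodelin, whereas Remodelin 1 lay above all of those. The log2 fold change was -0.36 ± 0.14 (95% interval -0.65 to -0.08, adjusted p = 0.107). It passed the threshold without Remodelin 1 (-0.51, adjusted p = 0.00824) and without control 1 (-0.43, adjusted p = 0.048). With the GC trend removed it was -0.18 (adjusted p = 0.443). The longest Sdf2l1 transcript has 1108 bases, and the part of the length trends given for Atf6 was not tested.

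The other 5 members of this group were Hyou1, an exchange factor for BiP, Dnajb11 and Dnajc3, cochaperones, and Manf and Creld2, secreted or lumenal proteins that rise with ER stress. Their averaged log2 fold changes ran from -0.23 ± 0.11 (Creld2, adjusted p = 0.207) to 0.10 ± 0.17 (Dnajc3, adjusted p = 0.742). Hyou1 spanned 58.1 to 125 CPM, Dnajb11 81.0 to 104, Dnajc3 29.9 to 70.1, Manf 120.3 to 208 and Creld2 32.3 to 49.8. The lowest Hyou1 and the highest Dnajc3 and Manf values were all in library 1 of the combined treatment.

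Of the 5 disulfide isomerases, which form and exchange disulfide bonds, 0 passed the test with Remodelin. Pdia3, which encodes ERp57, the isomerase that works with calreticulin and calnexin, read 310.2, 257 and 269 CPM in controls, 303, 301 and 344 with IFN-γ, 238, 289.9 and 312 with Remodelin, and 423, 312 and 319.8 with the combined treatment. Libraries with and without Remodelin overlapped, and the log2 fold change was 0.08 ± 0.11 (95% interval -0.16 to 0.32, adjusted p = 0.665). All combined libraries lay above all Remodelin ones, a separation that 9.48% of all genes showed. The lowest value among the isomerases was -0.26 ± 0.11 for P4hb (799 ± 80.6 against 958 ± 80.1 CPM, SD, n = 6 each, adjusted p = 0.135) and the highest 0.08 ± 0.15 for Pdia5. Pdia4 and Pdia6 lay at -0.03 ± 0.10 and -0.09 ± 0.11.

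Of the 11 ERAD members, 10 were tested and Edem2 alone was called. Herpud1, a scaffold of the ERAD ligase complex and carrier of the ERSE-II, read 29.6, 32.6 and 37.6 CPM in controls, 30.2, 28.5 and 32.2 with IFN-γ, 36.1, 38.5 and 27.5 with Remodelin, and 27.0, 27.4 and 28.6 with the combined treatment. All 3 combined libraries lay at the low end of the range, Remodelin 1 and 2 near its high end, and the log2 fold change was -0.05 ± 0.11 (95% interval -0.29 to 0.19, adjusted p = 0.808). The 3 EDEM members differed in sign, with Edem1 at 0.10 ± 0.10 (adjusted p = 0.52), Edem2 at -0.41 and Edem3 at 0.44 ± 0.19 (adjusted p = 0.163). Edem3 had 179 to 479 reads per library and a wide control group, at 22.5, 13.0 and 9.72 CPM. It lay at 16.02 to 17.0 CPM with IFN-γ, 13.1 to 27.7 with Remodelin and 19.5 to 24.4 with the combined treatment. It passed the threshold without control 1 (0.64, adjusted p = 0.0239) and without Remodelin 1 (0.55, adjusted p = 0.0425). With the GC trend removed it was 0.25 (adjusted p = 0.354). The longest Edem3 transcript has 6327 bases, and the part of the length trends given for Atf6 was not tested.

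The remaining ERAD members were Sel1l and Syvn1, the adaptor and the ubiquitin ligase of the HRD1 complex, the Derlins Derl1 and Derl2, and the lectins Os9 and Erlec1. Their log2 fold changes ran from -0.27 ± 0.16 (Syvn1, adjusted p = 0.289) to 0.25 ± 0.14 (Erlec1, adjusted p = 0.258). Syvn1 was at 16.2 CPM in library 1 of the combined treatment and between 29.0 and 45.2 elsewhere. Derl3 had 0 to 5 reads per library, and a floor of 3 reads corresponds to 0.154 to 0.188 CPM, so no fold is given.

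Of the 3 members of the translocon and the ER membrane, 0 passed the test. Sec61a1 and Sec61b, which encode subunits of the channel, had log2 fold changes of -0.21 ± 0.11 (adjusted p = 0.242) and 0.00 ± 0.13 (adjusted p = 0.996). Wfs1, an ER membrane protein of calcium handling, was at 0.12 ± 0.14 (adjusted p = 0.606), with 81.5 CPM in library 1 of the combined treatment and 114 to 200.1 CPM elsewhere.

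Within each level of IFN-γ, where 3 libraries stand against 3, 0 of 33 members passed the edgeR test for Remodelin. In Remodelin against control, 0.846% of all genes were called (26 higher, 88 lower, or 64 and 124 with the GC trend removed), 3 members had an unadjusted p under 0.05, and DESeq2 called 0 members. In the combined treatment against IFN-γ, 0.364% of all genes were called, 3 members had an unadjusted p under 0.05, and DESeq2 called 1 member, Edem2 (-0.49, adjusted p = 0.0468). The member medians were -0.05 and -0.02, beside 0.01 and 0.03 over all genes. Levels did not overlap between the 3 libraries of each group in 2 members in the former (6.06%, against 16.4% of all genes) and in 7 in the latter (21.2%, against 27.7%). The averaged value uses the libraries of both of these comparisons and is not independent of either.

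The next question was whether IFN-γ changed these genes. In IFN-γ against control 0 of 33 members passed the edgeR test, and 0.0148% of all genes did (2 genes). The smallest adjusted p among members was 0.889, 1 member had an unadjusted p under 0.05, and DESeq2 called 0. That member was Hsp90b1, at 159 ± 12.6 CPM with IFN-γ and 113 ± 19.8 in controls (SD, n = 3), a log2 fold change of 0.50 ± 0.22 (95% interval 0.03 to 0.96, adjusted p = 0.889). Levels did not overlap between the 3 IFN-γ and the 3 control libraries in 5 of 33 members (15.2%) and in 17.7% of all genes tested. These members were Hsp90b1, Hspa5 (0.25 ± 0.18), Dnajb9 (0.40 ± 0.21) and Sec61b (0.31 ± 0.18), with higher levels, and Wfs1 (-0.30 ± 0.20), with a lower one, and the adjusted p of each was 0.889. With the GC trend removed the value of Hsp90b1 was 0.29 and that of Dnajb9 0.13. Over the 33 members the median was 0.01, with 19 positive and 14 negative values, beside 0.00 over all genes.

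In the combined treatment against Remodelin, 0% of all genes were called by edgeR (0 genes, with 1043 at an unadjusted p under 0.05 and 1 gene called by DESeq2). Of the 33 members, 0 were called, with 2 at an unadjusted p under 0.05 and 0 called by DESeq2. Those 2 were Dnajb9 (0.80 ± 0.22, 95% interval 0.34 to 1.25, adjusted p = 0.636) and Hspa5 (0.38 ± 0.18, 95% interval 0.01 to 0.76, adjusted p = 0.641). Levels did not overlap in 3 members, Dnajb9, Pdia3 and Derl1 (9.09%, against 9.48% of all genes). Dnajb9 and Hspa5 both had their highest level in the combined library 1 and their lowest in Remodelin 1. Without control 1, Remodelin 1 and the combined library 1, the values were 0.38 ± 0.16 and 0.04 ± 0.12. These comparisons share libraries with those above and are given side by side only.

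Whether the Remodelin difference depended on IFN-γ was tested by the interaction. Of the 33 members 0 passed the edgeR test (smallest adjusted p = 1, with 0 at an unadjusted p under 0.05 and 0 called by DESeq2), and 0.00742% of all genes did (1 gene, lower). The values ran from -0.25 ± 0.27 (Sdf2l1) to 0.40 ± 0.30 (Dnajb9). For Calr the interaction was -0.08 ± 0.24 (95% interval -0.59 to 0.43) and for Edem2 -0.16 ± 0.20 (95% interval -0.58 to 0.26), which leaves room for differences as large as the averaged changes themselves.

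Members with and without an element had overlapping values. The 9 tested members with an ERSE or ERSE-II had averaged Remodelin log2 fold changes from -0.44 (Calr) to 0.15 (Canx), with a median of -0.05 and 4 positive and 5 negative values. The 18 searched members without either had a median of -0.03, with 8 positive and 10 negative values. In IFN-γ against control the medians were 0.07 and 0.01. These are descriptions of small lists, with no test.

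The members' levels differed between libraries along the GC content of their transcripts. Over the 33 members, whose values share library and depth, the Spearman correlation between a member's deviation and the GC content of its longest transcript was -0.716 in library 1 of the combined treatment and -0.69 over the genes with a GC value (13339 of those tested). Over the members it was 0.156, 0.698 and 0.478 in controls 1, 2 and 3, and 0.388, -0.0465 and -0.372 in the IFN-γ libraries. It was 0.575, 0.132 and -0.55 in Remodelin 1, 2 and 3, and -0.0164 and -0.362 in the combined libraries 2 and 3. The trend thus differed partly by treatment group. In the combined library 1, Dnajb9 (40.6% GC) was at 0.95 log2 units above its mean, Hsp90b1 (42.1%) at 0.74 and Hspa5 (45.6%) at 0.58. In the same library Calr (50%) was at -0.70, Wfs1 (57.8%) at -0.75 and Syvn1 (56.6%) at -0.9997.

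**Figure D3:**
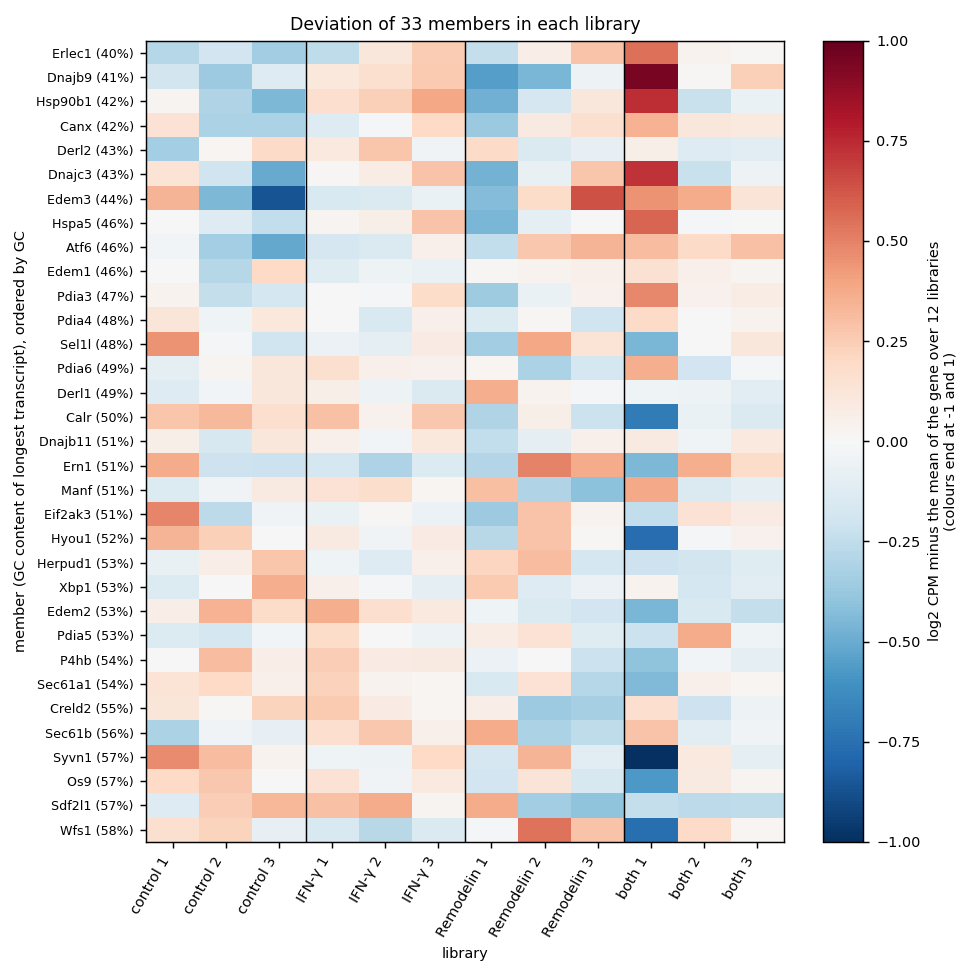
Deviation of each member (y axis, ordered from low to high GC content, in percent) in each of the 12 libraries (x axis), as log2 CPM minus the mean of that gene. Colours end at -1 and 1. The combined library 1 is red among the low-GC members at the top and blue among most high-GC members at the bottom.

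**Figure D4:**
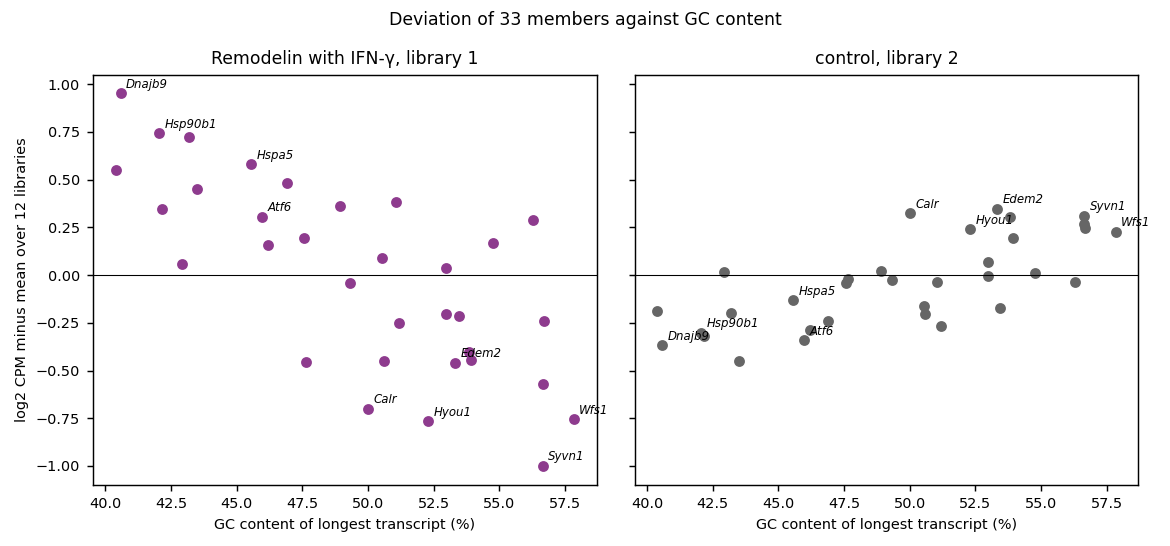
Deviation of the 33 members in log2 units (y axis) against the GC content of the longest transcript in percent (x axis), in library 1 of the combined treatment (left) and control 2 (right). The slope is downward on the left (Spearman -0.716) and upward on the right (0.698).

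With the GC trend of each library removed, Calr stayed at -0.44 (adjusted p = 0.0284) and Edem2 at -0.30 (adjusted p = 0.0289), and these were the members called. Hspa5 was then at -0.13 (adjusted p = 0.411) and Dnajb9 at -0.17 (adjusted p = 0.332), signs opposite to those without the correction, all of them short of the threshold. The source of the GC trend was not tested.

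Other genes of the pathway were grouped in 5 lists, which are described here by the averaged Remodelin effect. The lists were chosen with earlier results of that effect known, so the share called in a list is not an independent result. Of 16 genes of the PERK and integrated stress response arm, 6 rose with Remodelin and 0 fell (37.5%, against 7.04% of all genes), with a median log2 fold change of 0.33. Chac1, a glutathione-degrading enzyme induced by ATF4, rose from between 3.96 and 5.97 CPM in the 6 libraries without Remodelin to between 8.99 and 14.2 in the 6 with it (1.13 ± 0.15, adjusted p = 0.000433). Ddit3, which encodes CHOP, the death-associated factor of this arm, rose from 16.2 to 24.1 CPM to 31.1 to 54.1 (0.96 ± 0.16, adjusted p = 0.00241). Nupr1, a stress-induced chromatin protein (1.07 ± 0.17, adjusted p = 0.00159), and Trib3, a pseudokinase that opposes ATF4 (0.72 ± 0.12, adjusted p = 0.00242), also rose. In each of these 4 genes the 6 Remodelin libraries lay above the other 6, narrowly so in Trib3, as in 167 of 13474 genes tested. The 4 were picked by smallest p in this same effect, so their separation is not independent of it. The other 2 called were Sesn2 and Vldlr. Atf4 itself was at 0.31 ± 0.11 (adjusted p = 0.0819), and Ppp1r15a, which encodes GADD34, the eIF2α phosphatase subunit, at -0.06 ± 0.10 (adjusted p = 0.738). The same 4 genes are also induced by other eIF2α kinases than PERK, which counts cannot distinguish.

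**Figure D5:**
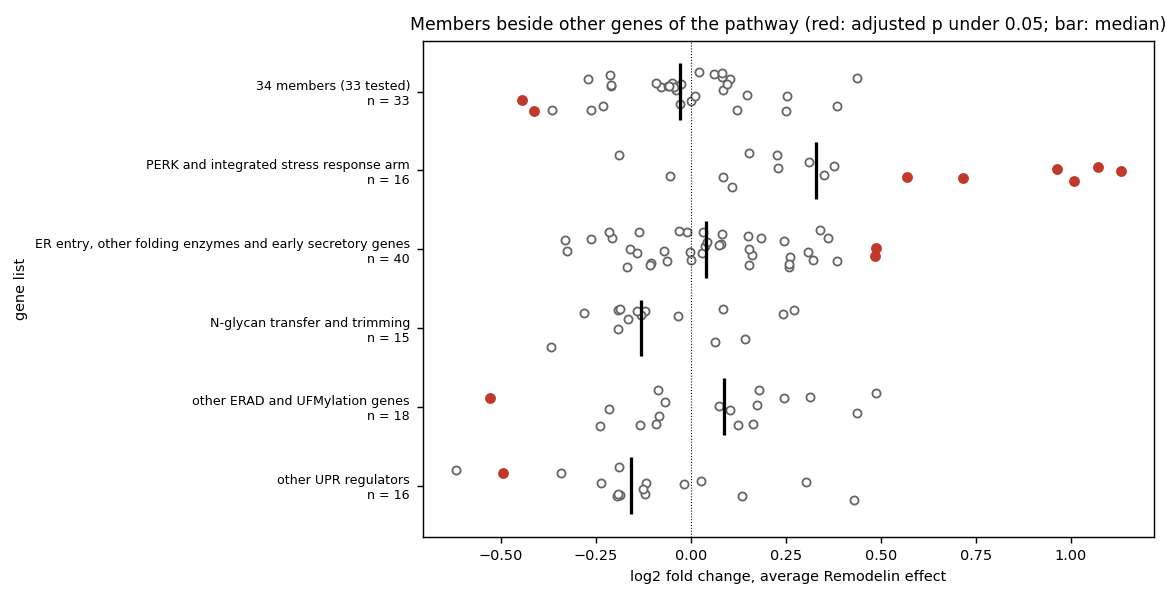
Average Remodelin effect as log2 fold change (x axis) for the 33 members tested and for 5 other lists of the pathway (y axis); each point is a gene, red points passed an adjusted p of 0.05, and bars are medians. Red points of the PERK arm lie to the right of 0.5, and the 2 red members lie near -0.4.

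The other 4 lists held fewer calls. Of 40 genes of ER entry, other folding enzymes and the early secretory route, 2 rose and 0 fell (5%), with a median of 0.04. They were Ero1a, the oxidase that recharges protein disulfide isomerase (0.49 ± 0.12, adjusted p = 0.0215), and Ssr3, a translocon-associated subunit (0.49 ± 0.13, adjusted p = 0.039). With the GC trend removed neither was called, at 0.28 (adjusted p = 0.0682) and 0.25 (adjusted p = 0.0897). Of 15 genes of N-glycan transfer and trimming, 0 passed the edgeR test (3 at an unadjusted p under 0.05, 0 called by DESeq2), with a median of -0.13, and 1 passed without control 1 or without Remodelin 1. Of 18 other ERAD and UFMylation genes, 1 fell, the ubiquitin-conjugating enzyme Ube2g2 (-0.53 ± 0.12, adjusted p = 0.0174). Of 16 other regulators of the response, 1 fell, Traf2, the adaptor that IRE1α recruits (-0.49 ± 0.12, adjusted p = 0.0219). The call of Ero1a was lost without control 2, control 3, IFN-γ 1, IFN-γ 2 or Remodelin 3 (adjusted p of 0.0553 to 0.0769), and that of Ssr3 without any of those or without IFN-γ 3 or Remodelin 2 (0.067 to 0.115). The call of Ube2g2 was lost without control 2, IFN-γ 1, IFN-γ 2, Remodelin 3 or the combined library 1 (0.0522 to 0.0674), and that of Traf2 without any of those or without control 3 or Remodelin 2 (0.0523 to 0.0845). Chac1, Nupr1, Ddit3 and Trib3, which were picked for their small p with all libraries, passed in all 12 fits that left out 1 library. The count of the PERK arm as a whole ran from 5 to 7 over those fits.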

How the data were processed

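RNA of 12 mouse macrophage libraries was sequenced, and the authors deposited a table of raw read counts per gene and of FPKM values, per the file headers. The submitters' processing notes name CASAVA 1.8, HISAT2 2.0.5 and featureCounts 1.5.0-p3; what each did, the genome build, the annotation and the strand setting were not given in the sources used here. No column of per-library values was left unmapped. Groups came from the treatment labels.

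The edgeR 4.0.16 quasi-likelihood test (R 4.3.3) was run on the deposited counts, with TMM factors, the default count filter by group and all 12 libraries in 1 fit with a mean per group. Benjamini-Hochberg adjustment ran over 13474 genes, and a gene was called under an adjusted p of 0.05. SE is the log2 fold change divided by the root of F, and 95% intervals use the fit's t distribution. CPM are counts scaled with the TMM factors, log2 CPM used a prior count of 2, and FPKM were used for levels only, with no test. The common biological coefficient of variation was 18.6%, and floors cover counting error only, because the reads carry no molecular identifiers.

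Members and lists were chosen with earlier results of these data known, and the averaged Remodelin effect was among those results. Library values are given for each member called in any of the 6 comparisons and for Ern1, Eif2ak3, Atf6, Xbp1, Hspa5, Hsp90b1, Herpud1, Sdf2l1, Dnajb9, Calr and Pdia3; the other members are given by range, and up to 4 called genes per other list by smallest p. Edem3, Canx, P4hb, Atf4 and Ppp1r15a were added after their values were seen. Promoter windows came from RefSeq (GRCm38.p6), with 28 of 34 members matched, and GC content from the longest GENCODE M21 transcript, fitted per library by loess (span 0.5). Libraries of a group differed by more than counting noise, so none was merged. The test was checked on simulated counts. Alternatives were DESeq2 1.42.0 and its size factors within edgeR, limma-voom (limma 3.58.1), no filter, at least 50 reads in 3 libraries, a replicate block, the compared groups alone, GC trend removal and libraries left out.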

Additional observations from a re-analysis of the deposited data

How the results depend on the processing

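With 3 libraries a group and a variation of 18.6%, small differences could be missed, and the printed intervals give the uncertainty of each value. No smallest detectable difference was calculated. The counts of all genes called differed between settings. For Remodelin against control they were 283 with no filter, 267 with DESeq2, 58 with the replicate block, 22 with the compared groups alone, 188 with the GC trend removed, 1853 without both control 1 and Remodelin 1, 4126 without control 1, Remodelin 1 and the combined library 1, and 20 to 121 with each library left out (114 as reported). For the combined treatment against IFN-γ they were 271, 261, 24 and 83 in the order of the first 4 settings, 1318 without the 3 libraries, and 10 to 26 with each library left out (49 as reported). For the averaged effect they were 578 with the replicate block, 3668 and 4946 without 2 or 3 libraries, and 298 to 1960 with each left out (949 as reported). For IFN-γ against control they were 52 with no filter, 4 with DESeq2, 19 with the compared groups alone, 418 without the 3 libraries and 1 in each of 6 other settings, with 1 to 2 over libraries left out (2 as reported). For the combined treatment against Remodelin they were 6, 1 and 3 with no filter, with DESeq2 and without the 3 libraries, and 0 with any 1 left out. For the interaction they were 19 with no filter, 0 with the filter of 50 reads or the GC trend removed, 174 without the 3 libraries, and 0 to 1 with each left out.

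Members called in the averaged effect numbered 4 with no filter (Calr, Edem2, Atf6 and Edem3), 1 with the replicate block, 9 and 14 without 2 or 3 libraries, and 0 to 5 with each left out. Without the same 2 and 3 libraries, Remodelin against control called 3 and 13 members. Without the 3 libraries the combined treatment against IFN-γ called 4, IFN-γ against control 2 (Hsp90b1 and Dnajc3) and the interaction 1 (Hsp90b1), and DESeq2 called 1 in the combined treatment against IFN-γ. The count of all genes called moved as well, by the counts above. It was lower with the replicate block and higher without the 2 or 3 libraries. The member counts are therefore not read as a result about the members. The member median of Remodelin against control was 0.0111 with no filter and 0.0204 without the 3 libraries, and -0.0853 to -0.0197 with each left out. Over libraries left out, the median ran from -0.0562 to -0.009 for the averaged effect, -0.0454 to 0.056 for IFN-γ against control, -0.0152 to 0.0765 for the combined treatment against Remodelin and -0.0943 to 0.0334 for the interaction. Signs turned past the threshold without the 3 libraries for Sel1l (0.40 in Remodelin against control and 0.25 averaged, against -0.01 and -0.04) and Sec61b (-0.21 averaged, against 0.00). The PERK arm had 5 to 7 calls with any 1 library left out and 5 to 9 under the other settings. Of 4200 values of 50 named genes under alternatives, 3974 kept their side of the threshold. The cause of these changes was not tested. Leaving out libraries which stand apart lowers the spread by construction, which by itself turns no sign. The longest transcripts of Sel1l and Sec61b have 6300 and 723 bases. In the libraries then kept, the trend with transcript length differed by treatment, and its part in the turned signs was not tested.

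No pairing by replicate number was seen in the deviations from group means. Same-numbered libraries of different groups had correlations from -0.547 to 0.261 (median -0.0451, 18 pairs), and 2 of 12 libraries correlated best with their own number. These deviations also carry each library's trends with GC content and length, so the check cannot exclude shared cultures or mice. With the replicate block, Calr was at -0.46 (adjusted p = 0.0553).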
